A study of Arabidopsis thaliana with 21 samples.

Results

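Small RNAs of UGT84A2 (AT3G21560) were abundant in Arabidopsis thaliana plants carrying the dxo1-2 mutation, with 15388 reads in dxo1-2dcl4-2 and 3273 in dxo1-2, against 2 in dcl4-2 and 6 in wild-type Col-0. Its mRNA was also 4.30-fold and 4.35-fold higher in dxo1-2 and in the libraries labelled dxo1-1 than in Col-0. The gene belongs to the UGT84 family of glycosyltransferases, whose 6 members were chosen by name and locus: UGT84A1 (AT4G15480), UGT84A2 (AT3G21560), UGT84A3 (AT4G15490), UGT84A4 (AT4G15500), UGT84B1 (AT2G23260) and UGT84B2 (AT2G23250). All 6 were listed among the 33602 genes of the mRNA table and among the 32420 genes of each small RNA table. The family was picked because small RNAs of UGT84A2 appeared in dxo1-2, so the small RNA values of dxo1-2 against Col-0 are given as a description, with no test.

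The series measured mRNA in 9 libraries and small RNA in 12 libraries of plants labelled as DXO1 (AT4G17620) mutants and of lines without those alleles. The series title gives the enzyme NAD cap removal (deNADding) and exonuclease activity. The mRNA libraries came from dxo1-2, dxo1-1 and wild-type Col-0 at 16 days. Small RNA was sequenced from 10-day-old plants of the cross dxo1-2dcl4-2, of dxo1-2, of dcl4-2 and of Col-0. Each group had 3 replicates. The labels give no other allele, agent or treatment, and do not say what kind of lesion each allele carries. The mRNA and small RNA values therefore come from plants of different ages and were not taken from the same sample. Rosette leaves is the tissue label of all samples, but the protocol for small RNA extraction speaks of seedlings. Whether replicates were grown separately is not stated, and p-values thus reflect a spread between libraries that may be technical.

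UDP-glycosyltransferases move a sugar from a nucleotide sugar to a small molecule, and members of the plant group L, to which UGT84 belongs, often make glucose esters. UGT84A2, also known as BRT1, joins glucose to sinapate to give sinapoylglucose, which SNG1 turns into sinapoylmalate, the ultraviolet-absorbing ester of leaves. UGT84A1, UGT84A3 and UGT84A4 act on sinapate and related hydroxycinnamates, and UGT84B1 makes the glucose ester of the auxin indole-3-acetic acid. In the background of plant RNA silencing, DCL4 cuts double-stranded RNA into 21-nt small RNAs, DCL2 into 22-nt and DCL3 into 24-nt ones.

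Depth and the check of the mutated gene bear on every result. From the smallest steps of the FPKM values (fragments per kilobase of transcript per M mapped), the mRNA libraries were estimated to hold 17.3 to 20.4 M fragments. The small RNA tables held 173804 to 1403794 reads per library over the 3 size classes, with the dxo1-2dcl4-2 libraries the deepest on average. At 21 nt, 3793 to 5338 genes had reads per dxo1-2dcl4-2 library and 8260 to 12755 per dxo1-2 library. The range was 4301 to 5371 in dcl4-2 and 5874 to 6951 in Col-0. Replicates correlated at 21 nt with r of 0.0861 to 0.142 in dxo1-2dcl4-2. In dcl4-2, Col-0 and dxo1-2, r was 0.236 to 0.294, 0.312 to 0.362 and 0.411 to 0.518. A count of 0 in dxo1-2dcl4-2 is therefore not read as well-sampled absence. DXO1 mRNA averaged 6.73 ± 0.88 FPKM in dxo1-2, 212.2 ± 31.5 FPKM in the libraries labelled dxo1-1 and 10.93 ± 0.97 FPKM in Col-0 (SD, n = 3 each). The libraries labelled dxo1-1 lay far above Col-0, so that label is used here only as a name. Leaf transcripts were abundant in every mRNA library, and RCA, the activase of Rubisco, averaged 3203 FPKM in dxo1-2, 3742 FPKM in the libraries labelled dxo1-1 and 5309 FPKM in Col-0. The floral identity gene AP1 was at or near 0, while SEP3, another, averaged 5.33, 3.62 and 2.29 FPKM in these groups. TIP2;3, a root aquaporin, averaged 0.317 FPKM in dxo1-2, 2.00 FPKM in the libraries labelled dxo1-1 and 4.46 FPKM in Col-0, and TIP1;1, a second tonoplast aquaporin, 561, 777 and 513 FPKM in these groups. The part of tissue make-up in the changes below was not tested, and in such bulk samples more cells of a type and more RNA per cell cannot be told apart.

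Small RNAs of UGT84A2 appeared in both lines with dxo1-2 and were nearly absent from both lines without it. The unit below is the normalized read, which the authors scaled separately within each size class. At 21 nt, UGT84A2 had 1071, 1596 and 1318 normalized reads in the dxo1-2dcl4-2 libraries, and 526, 494 and 589 in the dxo1-2 libraries. It had 0, 0 and 2.17 in the dcl4-2 libraries, and 0 in all 3 Col-0 libraries. Every library with dxo1-2 lay far above every library without it. At 22 nt, the values were 2429, 2585 and 2532 in dxo1-2dcl4-2, 82.3, 80.6 and 89.8 in dxo1-2, 0 in all 3 dcl4-2 libraries, and 0, 0 and 4.38 in Col-0. The 4 groups kept the same split, and the 2 lines with dxo1-2 did not overlap each other. At 24 nt, the values were 431, 405 and 325 in dxo1-2dcl4-2, 9.69, 10.8 and 5.30 in dxo1-2, 0 in all 3 dcl4-2 libraries, and 0, 0 and 1.56 in Col-0. All reads of the gene in Col-0 came from replicate 3, and those in dcl4-2 also came from replicate 3. Over the 3 classes the gene had 15388 reads in dxo1-2dcl4-2, 3273 in dxo1-2, 2 in dcl4-2 and 6 in Col-0.

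**Figure D1:**
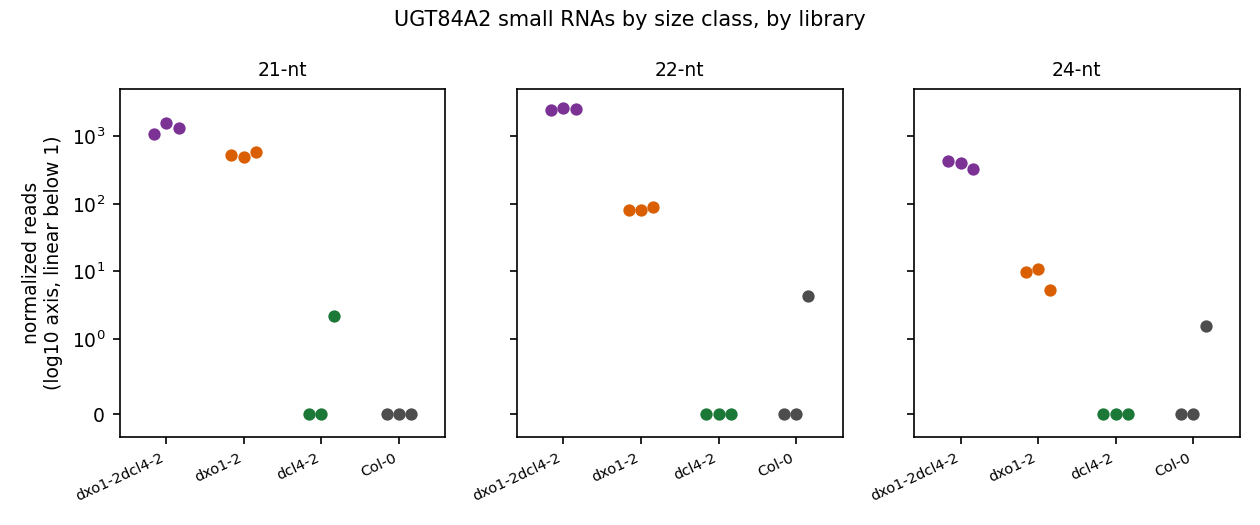
Normalized small RNA reads of UGT84A2 in each library (points, 3 per line), by size class, on a log10 axis that is linear below 1. The lines with dxo1-2 sit between 494 and 1596 at 21 nt, while the lines without it reach at most 2.17.

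The contrast of dxo1-2dcl4-2 with dcl4-2 passed the test in all 3 size classes. Its means come from libraries other than those that led to the choice of the gene, but the fit took the spread between replicates, and the filter its mean, from all 12 libraries. UGT84A2 averaged at most 0.724 normalized reads in dcl4-2 and 1.46 in Col-0. It therefore reached the filter through the lines with dxo1-2, and the fit on 2 lines below has the same limit. Small RNAs of UGT84A2 were higher by log2 10.55 at 21 nt (SE 0.68, limma adjusted p = 1.37e-10), by 12.3 at 22 nt (SE 0.73, adjusted p = 1.95e-16) and by 9.59 at 24 nt (SE 0.89, adjusted p = 1.11e-08), 3 libraries against 3. Fitted on the 6 libraries of these 2 lines alone, with the same genes kept, the adjusted p-values were 0.00156 at 21 nt, 3.94e-06 at 22 nt and 0.000155 at 24 nt, where 1.32%, 1.45% and 0.531% of genes were called higher. The quasi-likelihood test of edgeR on the recovered reads gave adjusted p-values of 1.83e-51, 1.53e-64 and 6.41e-32. The fitted changes depend on the value added before taking logarithms, since dcl4-2 was at or near 0. Reads were also pooled over each line and divided by its pooled depth on the authors' scale. On these pooled reads the ratio at 21 nt was 1500 (counting interval 415 to 12390), with 2 reads behind the dcl4-2 value. At 22 nt dxo1-2dcl4-2 was at least 1712-fold higher and at 24 nt at least 237-fold higher, with a floor of 3 reads over the dcl4-2 group. Such intervals and floors cover counting error only. In this comparison 2.32% of the 7892 genes tested at 21 nt, 3.07% of 8498 at 22 nt and 1.69% of 8473 at 24 nt were called higher. Only 8 genes tested had a larger fitted increase than UGT84A2 at 21 nt, 4 at 22 nt and 6 at 24 nt.

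By level, UGT84A2 was among the genes richest in small RNAs in both lines with dxo1-2, except at 24 nt in dxo1-2. At 22 nt, 17 of the 32420 genes had a higher mean in dxo1-2dcl4-2, and 57 had one in dxo1-2. At 21 nt, 23 genes stood above it in dxo1-2dcl4-2 and 31 in dxo1-2. At 24 nt, 25 genes stood above it in dxo1-2dcl4-2 and 2293 in dxo1-2. The gene took 0.501% of the 21-nt reads assigned to genes in dxo1-2dcl4-2 and 0.399% in dxo1-2. Its share of the 22-nt reads was 0.520% in dxo1-2dcl4-2 and 0.127% in dxo1-2, and its share of the 24-nt reads was 0.237% and 0.00999% in these lines.

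The dxo1-2 line is described against Col-0 on the same scale, since this contrast led to the choice of the gene. At 21 nt, dxo1-2 was at least 581-fold higher than Col-0 on reads pooled over each line and divided by its pooled depth. At 22 nt the ratio was 59.3 (counting interval 23.0 to 218), with 4 reads in Col-0, and at 24 nt it was 13.0 (3.45 to 110), with 2 reads in Col-0. Those Col-0 reads were all in replicate 3, and the other 2 Col-0 libraries had none (0 reads) of UGT84A2 in any class.

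The size of the small RNAs differed between the 2 lines that had them. In dxo1-2dcl4-2, 28.6% ± 4.3 of the reads of UGT84A2 were 21 nt, 63.3% ± 2.8 were 22 nt and 8.09% ± 2.0 were 24 nt (SD, n = 3 libraries). In dxo1-2, 83.2% ± 1.3 were 21 nt, 14.8% ± 0.79 were 22 nt and 2.05% ± 0.81 were 24 nt (SD, n = 3 libraries). The 3 libraries of dxo1-2dcl4-2 ranged from 60.4 to 66.0% at 22 nt, against 14.0 to 15.5% in dxo1-2, with no overlap. The reads of all genes moved in the same direction. Over all genes, 57.2% of reads in dxo1-2dcl4-2 were 22 nt, against 22.1% in dxo1-2, 30.8% in dcl4-2 and 22.8% in Col-0. The 21-nt share of all genes was 26.9% in dxo1-2dcl4-2 and 39.7% in dxo1-2. In dxo1-2dcl4-2 the 21-nt shares of the gene and of all genes lay close together, while in dxo1-2 the share of the gene was well above that of all genes in the same libraries. With 3 libraries against 3 an exact permutation test cannot reach a p below 0.10, so no test of these shares is given.

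**Figure D2:**
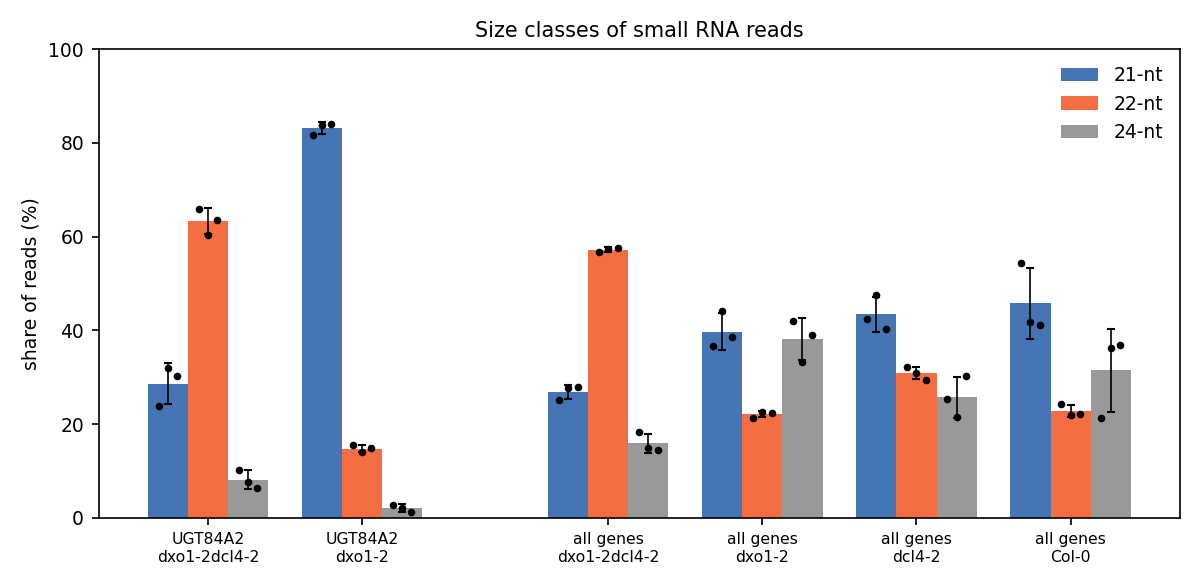
Share of reads (%) that were 21, 22 or 24 nt, for UGT84A2 in the 2 lines with dxo1-2 and for all genes in the 4 lines (bars, mean; error bars, SD; points, 3 libraries). UGT84A2 reads were mainly 22 nt in dxo1-2dcl4-2 (63.3%) and mainly 21 nt in dxo1-2 (83.2%).

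How far dxo1-2dcl4-2 stood above dxo1-2 depended on the scaling, and the values are a description because the choice of the gene used dxo1-2. Mean normalized reads in dxo1-2dcl4-2 and dxo1-2 were 1329 and 536.5 at 21 nt, 2515 and 84.2 at 22 nt, and 387 and 8.59 at 24 nt. With reads pooled over each line and divided by its pooled depth on the authors' scale, dxo1-2dcl4-2 was 2.36-fold higher at 21 nt. The same ratio was 29.1 at 22 nt and 53.4 at 24 nt. In reads per M over the 3 classes summed, the 21-nt level was 1353 ± 249 in dxo1-2dcl4-2 and 1581 ± 190 in dxo1-2, so the direction at 21 nt turned with the scaling. On that scale the 22-nt level was 2975 ± 31 in dxo1-2dcl4-2 and 280.0 ± 25 in dxo1-2, and the 24-nt level was 379 ± 82 and 37.8 ± 12 in these lines (SD, n = 3 each). Over the 3 classes together, UGT84A2 had 4707 ± 175 reads per M in dxo1-2dcl4-2 and 1898 ± 201.1 in dxo1-2 (SD, n = 3 each). The higher levels at 22 nt and 24 nt were thus present on both scales, and their size was not the same.

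The nearest neighbours of UGT84A2 in the reference order had few small RNA reads. The neighbours before UGT84A2 on chromosome 3, AT3G21540 and DMP2, each had 0 reads over the 3 classes in dxo1-2dcl4-2, and 6 and 7 reads in dxo1-2. The next gene after it, AT3G21570, had 45 reads in dxo1-2dcl4-2, 73 in dxo1-2, 21 in dcl4-2 and 75 in Col-0. The gene after that, ABCI12, had 0 reads in dxo1-2dcl4-2 and 1 in dxo1-2. These counts compare with 15388 and 3273 reads of UGT84A2 in dxo1-2dcl4-2 and dxo1-2. They are not scaled to depth, and the lines held 3281394 reads in dxo1-2dcl4-2, 1691899 in dxo1-2, 697841 in dcl4-2 and 994730 in Col-0.

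UGT84A3 also gave small RNAs in the lines with dxo1-2, at 0.756 to 5.96 reads for each 100 of UGT84A2. At 21 nt it had 2.13, 43.8 and 24.04 normalized reads in dxo1-2dcl4-2, and 36.9, 14.8 and 17.8 in dxo1-2. It had 0 in all 3 dcl4-2 libraries, and 0, 0 and 4.88 in Col-0. At 22 nt it had 22.0, 36.7 and 48.6 in dxo1-2dcl4-2, 0, 7.23 and 4.55 in dxo1-2, 0 in all 3 dcl4-2 libraries, and 0, 0 and 2.19 in Col-0. All 3 dxo1-2dcl4-2 libraries were above the other 9 at 22 nt, whereas at 21 nt replicate 1 of dxo1-2dcl4-2 was below Col-0 replicate 3. Against dcl4-2, dxo1-2dcl4-2 was higher by log2 6.11 at 22 nt (SE 1.2, limma adjusted p = 0.000509; edgeR adjusted p = 3.32e-05). The gene averaged 35.8 normalized reads at 22 nt in dxo1-2dcl4-2, 3.93 in dxo1-2, 0 in dcl4-2 and 0.731 in Col-0, so it reached the filter through the lines with dxo1-2. At 21 nt it was higher by 4.83 (SE 1.2, limma adjusted p = 0.016; edgeR adjusted p = 0.00183), and its limma and edgeR adjusted p-values ran from 0.00183 to 0.214 over 12 alternatives. The call was lost under 7 of these, among them without replicate 1, 2 or 3 of dcl4-2 (adjusted p = 0.0525, 0.0584 and 0.0542) and without replicate 2 or 3 of dxo1-2dcl4-2 (adjusted p = 0.104 and 0.0977). At 24 nt the values were 4.63, 3.76 and 8.95 in dxo1-2dcl4-2 and 0 in all 3 dcl4-2 libraries. The log2 difference of 3.56 did not pass (limma adjusted p = 0.0592, edgeR adjusted p = 0.304). With these 2 lines fitted alone it did not pass either (limma adjusted p = 0.349). Without replicate 1, 2 or 3 of dxo1-2dcl4-2 the limma adjusted p was 0.0132, 0.0192 and 0.0214. At 24 nt the gene averaged 5.78 in dxo1-2dcl4-2, 0.43 in dxo1-2 and 0 in dcl4-2 and Col-0. It reached the filter through dxo1-2dcl4-2, so these 3 values are not counted as calls. At 21 nt too it reached the filter through the lines with dxo1-2. The ratio to UGT84A2 was 0.756, 1.81 and 1.94 reads per 100 in dxo1-2dcl4-2, and 5.96, 3.76 and 3.39 in dxo1-2. The family members are similar in sequence, and the treatment of reads that map to several genes is not given in the sources used. The assignment of these few reads to UGT84A3, UGT84A4 or UGT84A1 is therefore uncertain.

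UGT84A4 and UGT84A1 had few small RNA reads. UGT84A4 had 40 reads over the 3 classes in dxo1-2dcl4-2, 47 in dxo1-2, 4 in dcl4-2 and 0 in Col-0. The lines differ in depth, and in reads per M the means were 11.1, 27.0, 4.97 and 0 in that order. In dxo1-2 these were mostly 21 nt, with 4.51, 7.38 and 9.82 normalized reads in the 3 libraries, while dxo1-2dcl4-2 had 0, 7.16 and 0 at 21 nt. UGT84A1 had 15 reads in dxo1-2dcl4-2, 10 of them 22-nt reads of replicate 3, 1 read in dxo1-2 and 0 in dcl4-2 and Col-0. Against dcl4-2, dxo1-2dcl4-2 did not pass for UGT84A4 at 21, 22 or 24 nt (limma adjusted p = 0.957, 0.538 and 0.301) or for UGT84A1 at 22 nt (adjusted p = 0.256), the class in which UGT84A1 was tested. UGT84A1 at 22 nt had reads in dxo1-2dcl4-2 alone and so reached the filter only through that line. An adjusted p of 0.01 without replicate 1 of dxo1-2dcl4-2 leaves out the library of that line with no read of UGT84A1, and is not counted as a call. UGT84B1 and UGT84B2 had 0 of the 6665864 reads of the 12 libraries, which allows up to 0.450 reads per M reads. The filter, a mean of at least 1 normalized read over the 12 libraries, left 3 of the 6 members at 21 nt, 4 at 22 nt and 3 at 24 nt. A gene with reads in 1 or 2 lines reaches it through those lines, and these numbers of members are no support for a difference.

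**Figure D3:**
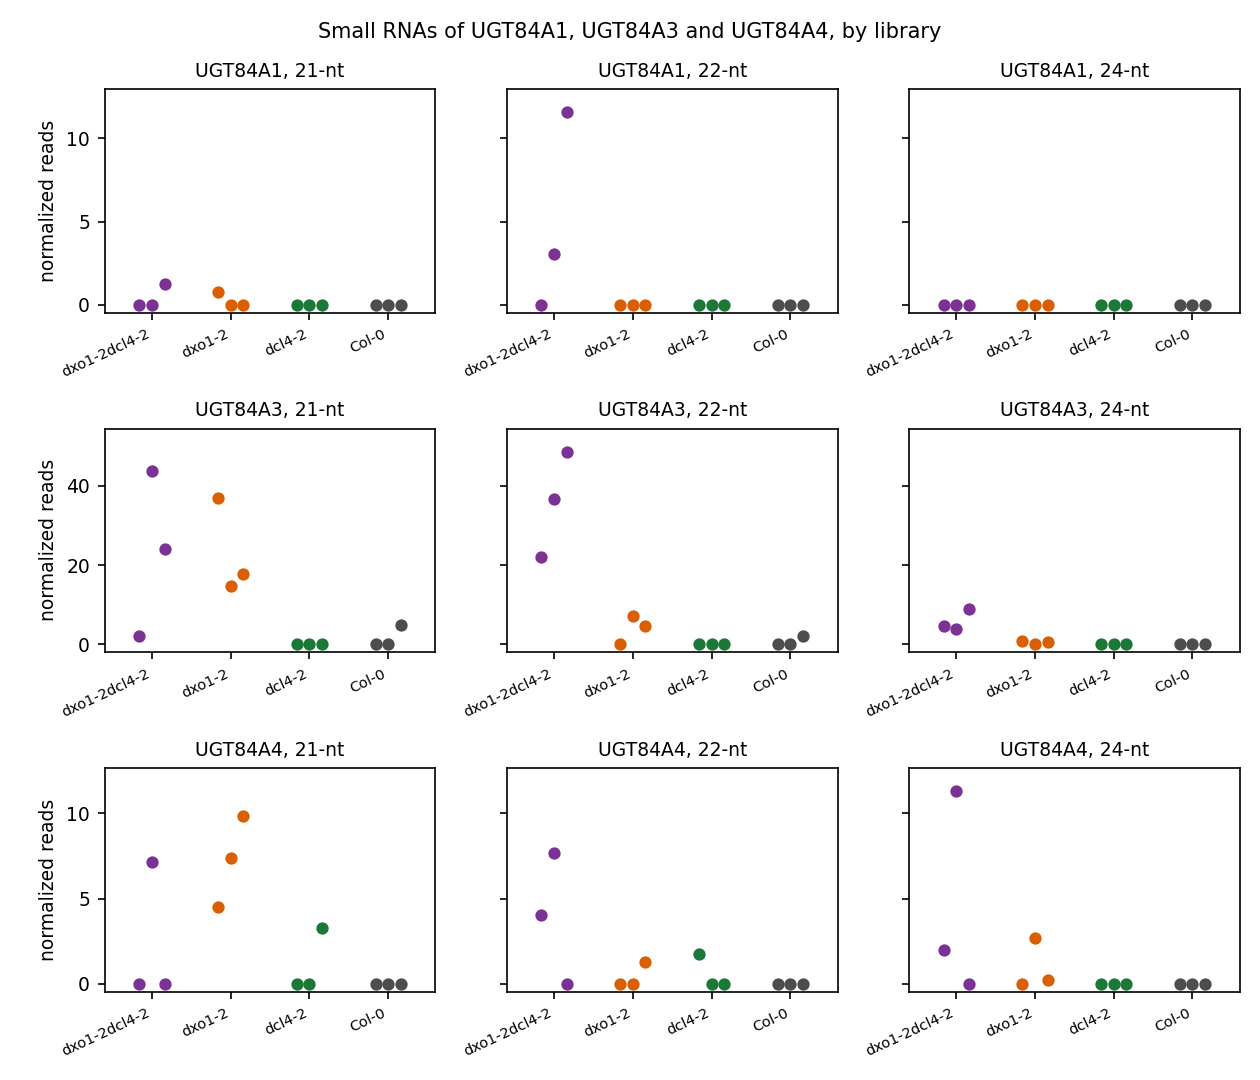
Normalized small RNA reads of UGT84A1, UGT84A3 and UGT84A4 in each library (points, 3 per line), by size class, on linear axes that differ between the genes. UGT84A3 reached 48.6 at 22 nt in dxo1-2dcl4-2, and all 3 libraries of that line lay above the rest.

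None (0) of the members other than UGT84A2 passed in the main limma test of the remaining comparisons between lines. Between dcl4-2 and Col-0, limma adjusted p-values of UGT84A3 and UGT84A4 were 0.9195 to 0.9335 at 21 nt and 22 nt. Of these, 0 had an unadjusted p under 0.05, and edgeR also called 0 of them. Both genes reached the filter through the lines with dxo1-2. Over the 3 classes UGT84A3 had 0 reads in dcl4-2 and 7 in Col-0, and UGT84A4 had 4 and 0. With so few reads the test had little room to pass, so no lack of difference is read from it. In that comparison 0.862% of genes were called at 21 nt, 1.14% at 22 nt and 0.366% at 24 nt. Between dxo1-2dcl4-2 and dxo1-2, the limma adjusted p was 0.115 for UGT84A3 at 22 nt, where the log2 change was 3.68, and 0.279 for UGT84A4 at 21 nt, where it was -2.58. UGT84A4 at 21 nt, UGT84A1 and UGT84A3 at 22 nt and UGT84A3 at 24 nt had an unadjusted p under 0.05 there, and edgeR called 0 of the members. UGT84A3 at 22 nt passed when 1 was added in place of 0.5 before taking logarithms (adjusted p = 0.0383), and UGT84A1 at 22 nt had an adjusted p of 0.0159 without dxo1-2dcl4-2 replicate 1, with the same limit as above. In that comparison 4.59% of genes were called at 21 nt, 2.65% at 22 nt and 2.49% at 24 nt.

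The mRNA of UGT84A2, UGT84A3 and UGT84A4 was higher in dxo1-2, and also in the libraries labelled dxo1-1, than in Col-0. UGT84A2 had 43.6, 39.5 and 41.2 FPKM in dxo1-2, 42.4, 41.0 and 42.5 FPKM in the libraries labelled dxo1-1, and 9.19, 10.5 and 9.24 FPKM in Col-0. All 6 of these other libraries lay above all 3 Col-0 libraries, and the dxo1-2 and dxo1-1 groups overlapped. On the log2(FPKM + 1) scale the change was 2.00 in dxo1-2 (SE 0.062, limma adjusted p = 2.42e-10) and 2.02 in the libraries labelled dxo1-1 (SE 0.062, adjusted p = 1.64e-10), 3 libraries against 3 in each. The ratios of mean FPKM were 4.30 and 4.35. Both comparisons share the 3 Col-0 libraries. The difference between dxo1-2 and the libraries labelled dxo1-1 was -0.02 (95% interval -0.14 to 0.10, adjusted p = 0.842).

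UGT84A3 had 46.1, 46.1 and 46.5 FPKM in dxo1-2, 66.7, 61.3 and 61.8 FPKM in the libraries labelled dxo1-1, and 15.0, 15.5 and 12.8 FPKM in Col-0. The 3 groups did not overlap. The change was 1.62 in dxo1-2 (adjusted p = 2.56e-09) and 2.06 in the libraries labelled dxo1-1 (adjusted p = 2.75e-10). The direct comparison of dxo1-2 with the libraries labelled dxo1-1 passed as well, with a log2 difference of -0.44 (limma adjusted p = 0.000521). In that comparison 22.3% of the 18378 genes tested were called higher and 15.7% lower.

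UGT84A4 had 8.10, 6.77 and 7.84 FPKM in dxo1-2, 7.62, 8.91 and 8.73 FPKM in the libraries labelled dxo1-1, and 2.46, 2.24 and 3.14 FPKM in Col-0. Neither of the other groups overlapped Col-0. The change was 1.25 in dxo1-2 (adjusted p = 1.21e-06) and 1.39 in the libraries labelled dxo1-1 (adjusted p = 4.30e-07). The difference of dxo1-2 from the libraries labelled dxo1-1 did not pass (log2 -0.14, 95% interval -0.35 to 0.08, adjusted p = 0.358).

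UGT84A1 was barely expressed, at 0.49, 0.32 and 0.28 FPKM in dxo1-2, 0.28, 0.34 and 0.18 FPKM in the libraries labelled dxo1-1, and 0.15, 0.17 and 0.15 FPKM in Col-0. These values stand for an estimated 3.9 to 12.7 fragments per library, and the gene was below the filter of a mean of at least 1 FPKM. With no filter it passed in dxo1-2 (log2 0.23, limma adjusted p = 0.0164), where 40.8% of 24218 genes were called higher. The libraries labelled dxo1-1, where 40.1% of genes were called higher, did not pass for UGT84A1 (log2 0.13, limma adjusted p = 0.138). UGT84B1, the auxin glucosyltransferase, was listed at 0 in all dxo1-2 and Col-0 libraries and at 0.56, 0.35 and 0.51 FPKM in the libraries labelled dxo1-1, an estimated 6.9 to 11.9 fragments each. Also below the filter, UGT84B1 passed with no filter in the libraries labelled dxo1-1 against Col-0 (limma adjusted p = 1.80e-05) and in dxo1-2 against the libraries labelled dxo1-1 (adjusted p = 0.000141), the second with dxo1-2 lower, as were 12.5% of genes. UGT84B1 entered that fit only through the libraries labelled dxo1-1, where it is high. The dxo1-2 and Col-0 groups, all at 0, had no spread, so these p-values are not counted as calls. UGT84B2 was listed at 0 in all 9 libraries. Of the 6 members 3 passed the filter, and each of these had a mean above 1 FPKM in Col-0 too.

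**Figure D4:**
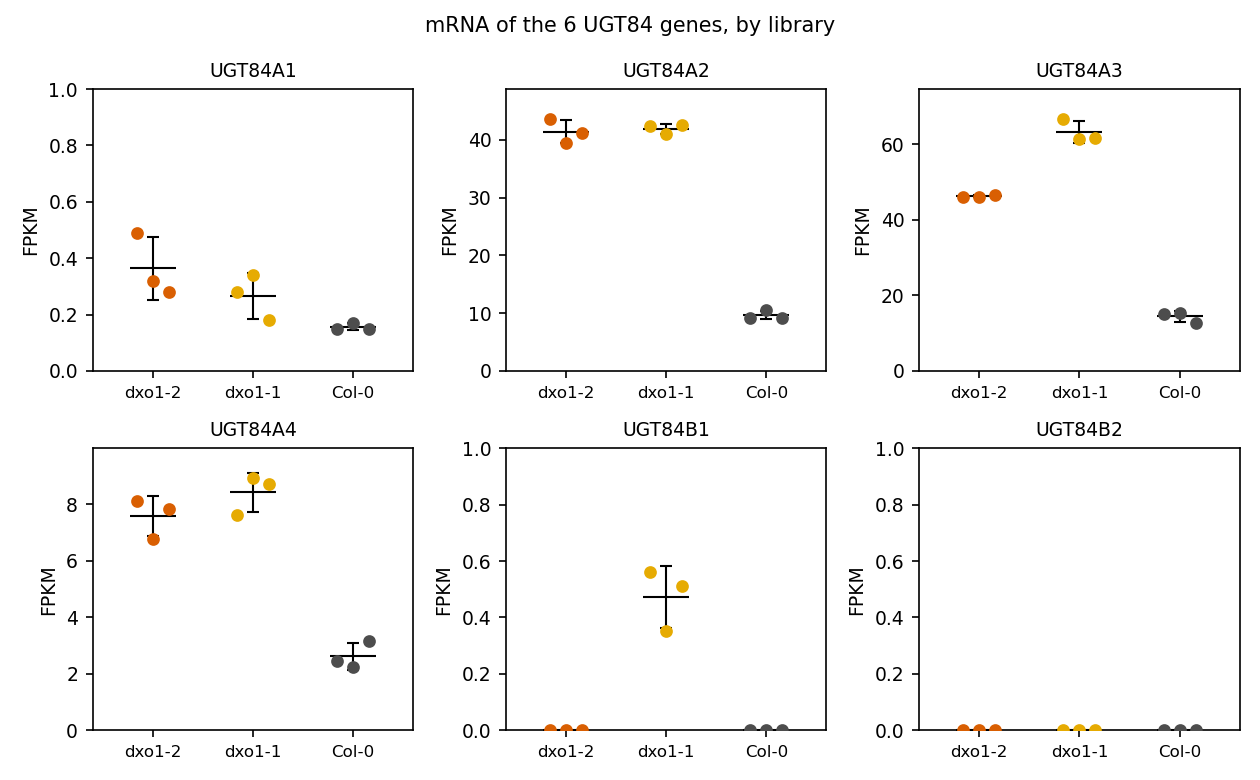
FPKM of the 6 UGT84 genes in each mRNA library (points, 3 per line; bars, mean and SD). UGT84A2, UGT84A3 and UGT84A4 were higher in every library of dxo1-2 and in every library labelled dxo1-1 than in every Col-0 library.

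Higher mRNA than in Col-0 was common among all genes, so the 3 of 3 tested members that were called higher are read against that background. Of the 18378 genes tested, 51.8% were called higher and 21.2% lower in dxo1-2 than in Col-0. The same calls were made for 49.6% (higher) and 26% (lower) of genes in the libraries labelled dxo1-1. The median change of all genes was 0.25 in dxo1-2 and 0.21 in the libraries labelled dxo1-1. Of the calls, 71.0% were upward in dxo1-2, against 43.2% once libraries were centred on their medians, and 65.6% were upward in the libraries labelled dxo1-1, against 44.2% once centred. With centring, the change of UGT84A2 was 1.64 in dxo1-2 and 1.70 in the libraries labelled dxo1-1, that of UGT84A3 was 1.27 and 1.75, and that of UGT84A4 was 0.90 and 1.08, and all 6 passed the test. In size, UGT84A2 stood near the top: 3.4% of the genes tested had a change at least as high in dxo1-2, and 4.55% in the libraries labelled dxo1-1. For UGT84A3 these shares were 5.90% and 4.31%, and for UGT84A4 10.3% and 10.2%.

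The order of the members by mRNA was not their order by small RNA. In dxo1-2, UGT84A3 mRNA averaged 46.2 FPKM and UGT84A2 mRNA 41.4 FPKM, levels per length that lie close together. In the small RNA libraries of the same line, at the younger age, UGT84A3 had 135 reads and UGT84A2 had 3273. In Col-0 the mRNA averaged 14.4 FPKM for UGT84A3 and 9.64 FPKM for UGT84A2, with 7 and 6 small RNA reads. No mRNA was measured in dcl4-2 or dxo1-2dcl4-2, and no small RNA in the libraries labelled dxo1-1.

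Genes with an mRNA pattern most like that of UGT84A2 over the 9 libraries were AT5G22540 (Pearson r = 0.9996 of log2(FPKM + 1)), AT4G08850 (0.9994), AT5G07340 (0.9993), AT1G25211 (0.9993) and the metacaspase gene MC1 (0.9992). A pattern of this kind was common, since 33.1% of the 18377 other genes had r above 0.9. UGT84A3 stood at rank 2320 (r = 0.978) and UGT84A4 at rank 2493 (r = 0.976). The 9 points fall into 3 groups of libraries, and r is a description of them. Over the 12 small RNA libraries at 21 nt, the most alike were AT3G43152 (r = 0.980), AT2G46630 (0.968), AT3G32092 (0.958), TCP14 (0.954), a transcription factor gene, and AT3G23870 (0.952). Here only 21 of 7891 genes had r above 0.9, and UGT84A3 stood at rank 41 (r = 0.849). The likest of them, AT3G43152, averaged only 4.55 normalized reads in dxo1-2dcl4-2 and 3.09 in dxo1-2, while TCP14 averaged 114 and 14.6 in these lines, and both were at 0 in dcl4-2 and Col-0 at 21 nt.

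Genes of the pathway that supplies and uses sinapate changed in both directions in the mRNA. The counts of this list and of the next 2 stand beside 51.8% of all genes higher and 21.2% lower in dxo1-2. The libraries labelled dxo1-1 had 49.6% of all genes higher and 26% lower. The list of phenylpropanoid and sinapate ester genes held 22 genes, of which 21 were tested. The dxo1-2 line had 16 of them higher and 5 lower, with a median log2 change of 0.28 beside 0.25 for all genes. The libraries labelled dxo1-1 had 14 higher, 5 lower and 2 that did not pass, with a median of 0.75 beside 0.21 for all genes. With centred libraries the split in dxo1-2 became 7 higher, 7 lower and 7 not passed, and in the libraries labelled dxo1-1 13 higher, 7 lower and 1 not passed.

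Of the genes called higher in both comparisons, the 3 with the largest mean change were REF1, C4H and FAH1. REF1, the aldehyde dehydrogenase that makes sinapate from sinapaldehyde, averaged 194 ± 4.5 FPKM in dxo1-2, 295 ± 6.5 FPKM in the libraries labelled dxo1-1 and 57.4 ± 2.2 FPKM in Col-0 (SD, n = 3 each; limma adjusted p = 2.91e-11 for dxo1-2 and 2.23e-12 for dxo1-1). C4H, which hydroxylates cinnamate, averaged 304, 363 and 97.9 FPKM in these groups, and FAH1, the ferulate 5-hydroxylase, averaged 272.5, 324 and 92.6 FPKM. All 3 remained higher with centred libraries, by log2 1.19 to 1.39 in dxo1-2 and 1.48 to 2.03 in the libraries labelled dxo1-1. Of those called lower in both, the 3 with the largest mean change were SNG1, SCPL10 and PAL4. SNG1, which forms sinapoylmalate from sinapoylglucose, averaged 172 ± 4.7 FPKM in dxo1-2, 127 ± 4.1 FPKM in the libraries labelled dxo1-1 and 372 ± 17 FPKM in Col-0 (SD, n = 3 each; log2 -1.10, limma adjusted p = 1.62e-09 for dxo1-2, and -1.55, adjusted p = 8.50e-11 for dxo1-1). SCPL10, which encodes a serine carboxypeptidase-like protein of the same family, had log2 changes of -0.69 and -0.996 in dxo1-2 and in the libraries labelled dxo1-1, and PAL4, a phenylalanine ammonia-lyase, of -0.28 and -1.09. The PAL4 call in dxo1-2 was lost without Col-0 replicate 1 or 3 (adjusted p = 0.0612 and 0.1) or dxo1-2 replicate 1 or 3 (adjusted p = 0.111 and 0.0554).

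The list of auxin conjugation, oxidation and conjugate hydrolysis genes held 16 genes, of which 13 were tested. The dxo1-2 line had 6 higher, 5 lower and 2 that did not pass, or 3 higher, 8 lower and 2 not passed with centring, with a median log2 change of -0.05 beside 0.25 for all genes. The libraries labelled dxo1-1 had 9 higher, 3 lower and 1 that did not pass, or 6 higher, 4 lower and 3 not passed with centring, with a median of 0.50 beside 0.21 for all genes. UGT74E2, which glucosylates the auxin precursor indole-3-butyric acid, averaged 5.12 FPKM in dxo1-2, 21.2 FPKM in the libraries labelled dxo1-1 and 0.433 FPKM in Col-0, with log2 changes of 2.11 and 3.96. GH3.3, which conjugates auxin to amino acids, was higher by 1.22 and 0.97. ILL2, which acts in the other direction by releasing auxin from such conjugates, was higher by 0.97 and 1.13. GH3.9 had log2 changes of -1.19 and -1.04, DAO2, a relative of the auxin oxidase DAO1, of -0.75 and -0.62, and the conjugating enzyme GH3.17 of -0.51 and -0.26. The GH3.17 call in the libraries labelled dxo1-1 was lost without Col-0 replicate 2 or dxo1-1 replicate 3 (adjusted p = 0.0537 and 0.0611).

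Other group L glycosyltransferases included genes called in both directions. Of 11 in the list 9 were tested, and 2 of the 11 also stand in the auxin list. The dxo1-2 line had 5 higher, 1 lower and 3 that did not pass, near the 51.8% higher of all genes, or 3 higher and 6 lower with centring. The libraries labelled dxo1-1 had 5 higher, 2 lower and 2 that did not pass, beside 49.6% of all genes higher, or 2 higher, 4 lower and 3 that did not pass with centring. UGT75D1 was higher by log2 0.90 in dxo1-2 and 1.06 in the libraries labelled dxo1-1. UGT75C1, which glucosylates anthocyanins, was higher by 0.96 and 0.40, the second of which became 0.09 with centring and did not pass (adjusted p = 0.507). UGT74E1 had log2 changes of -1.72 and -1.87, although its relative UGT74E2 was among the genes that were higher. The median log2 change of this list was 0.16 in dxo1-2 and 0.22 in the libraries labelled dxo1-1, beside 0.25 and 0.21 for all genes.

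**Figure D5:**
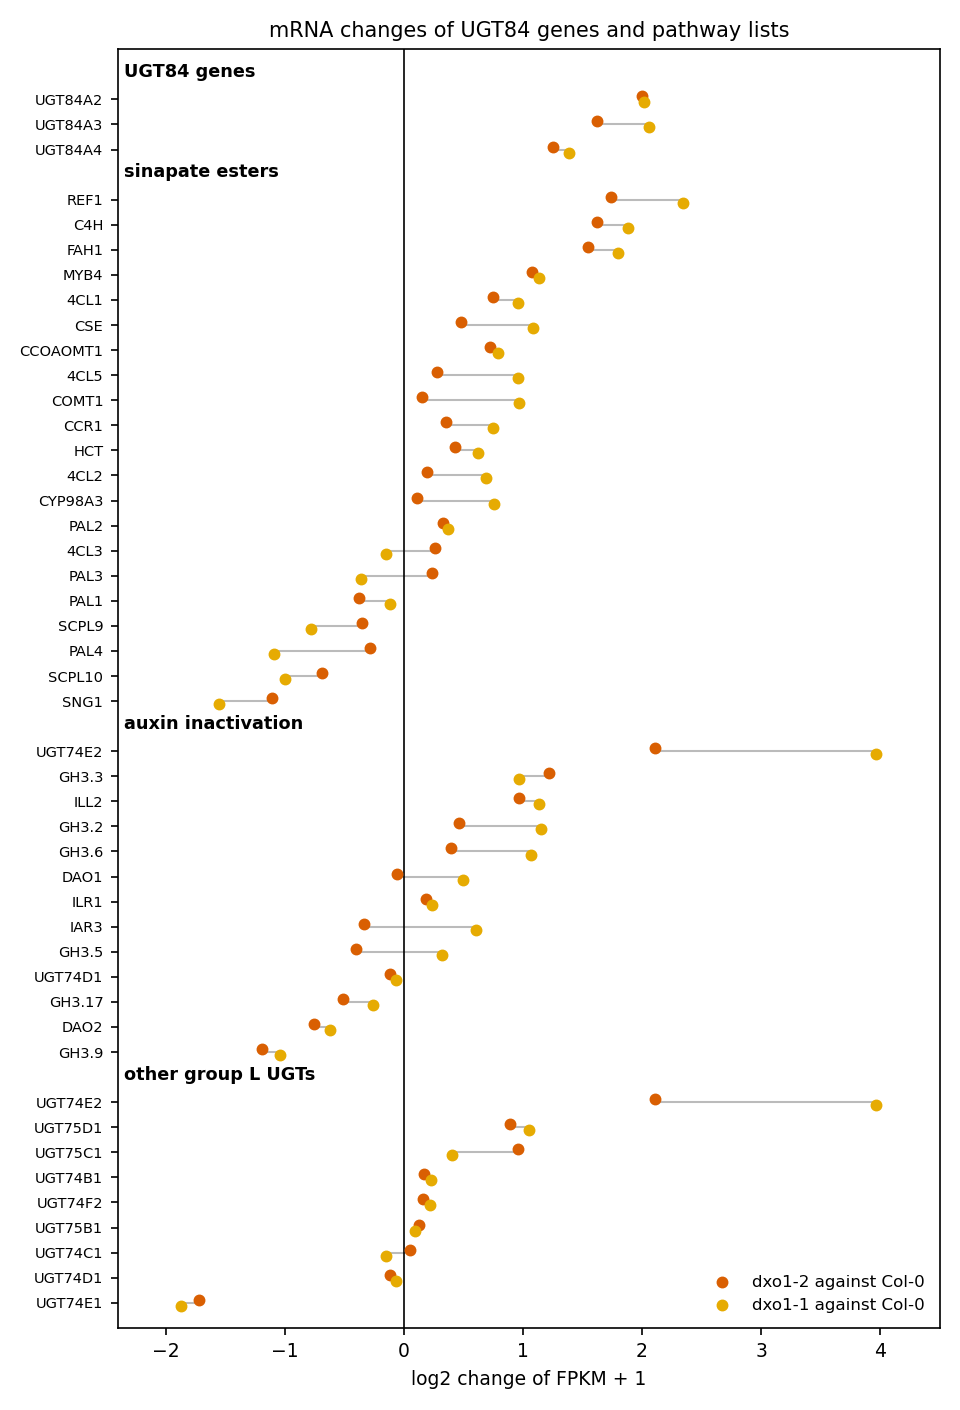
Log2 change of FPKM + 1 against Col-0 in dxo1-2 and in the libraries labelled dxo1-1 for the 3 tested UGT84 genes and the tested genes of the 3 lists (1 point per gene and line). UGT84A2 lies at 2.00 and 2.02, REF1, C4H and FAH1 lie on the same side, and SNG1 lies at -1.10 and -1.55.

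Small RNAs of other genes of the sinapate pathway were set beside those of UGT84A2 in dxo1-2dcl4-2 against dcl4-2. At 21 nt 2 of 15 tested genes were called higher and 1 lower, at 22 nt 2 of 15 higher and 1 lower, and at 24 nt 1 of 14 higher and 1 lower. Among all genes 2.32% were called higher and 1.55% lower at 21 nt, 3.07% and 2.48% at 22 nt, and 1.69% and 2.88% at 24 nt. With reads scaled to the 3 classes summed, the calls over all genes at 21 nt became 104 higher and 419 lower, in place of 183 higher and 122 lower. None (0) of the genes of the auxin and group L lists were called by limma or edgeR, among at most 7 tested per class. At an unadjusted p under 0.05 there were 1, 1 and 3 genes of the auxin list and 1, 0 and 2 of the group L list at 21, 22 and 24 nt. The genes called in the sinapate list are named here after their values were seen.

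MYB4, a transcription factor that represses C4H, had 395 to 552 normalized reads at 22 nt in dxo1-2dcl4-2, with a median of 417, against 0 in all 3 dcl4-2 libraries (limma adjusted p = 4.30e-09). In dxo1-2 it had 0 to 4.33 at 22 nt and in Col-0 0. At 21 nt MYB4 had 116 to 156 in dxo1-2dcl4-2, 3.01 to 6.32 in dxo1-2, 0 in dcl4-2 and 0 to 5.48 in Col-0. In dxo1-2, UGT84A2 had 494 to 589 normalized reads at 21 nt and MYB4 at most 6.32. This is a description, since UGT84A2 was chosen for its small RNAs in dxo1-2 and MYB4 was named for its call in dxo1-2dcl4-2. MYB4 mRNA averaged 17.4 FPKM in dxo1-2, 18.1 FPKM in the libraries labelled dxo1-1 and 7.71 FPKM in Col-0, and none was measured in dxo1-2dcl4-2. 4CL1, a coumarate-CoA ligase, had 59.1 to 74.2 normalized reads at 22 nt in dxo1-2dcl4-2 and 0 in all 3 dcl4-2 libraries (adjusted p = 3.07e-05). PAL2, a phenylalanine ammonia-lyase, passed at 21 nt, with 3.80 to 16.1 in dxo1-2dcl4-2 and 0 to 1.37 in dcl4-2 (adjusted p = 0.0397). In dxo1-2, the libraries labelled dxo1-1 and Col-0, 4CL1 mRNA averaged 102, 118 and 60.3 FPKM and PAL2 mRNA 67.3, 69.2 and 53.4 FPKM. SNG1 mRNA, given above, was lower than in Col-0. The PAL2 call was lost under 8 of its 12 alternatives, among them edgeR (adjusted p = 0.279) and leaving out dcl4-2 replicate 1 or 3 or dxo1-2dcl4-2 replicate 1 or 2 (adjusted p = 0.12, 0.124, 0.0783 and 0.0927). SNG1 was called lower in all 3 classes, with 0 in all 3 dxo1-2dcl4-2 libraries and 8.69 to 19.2 in dcl4-2 at 21 nt (limma adjusted p = 0.0026). Values of 0 in dxo1-2dcl4-2 carry the limit given above for that line. At 22 nt the SNG1 call was lost under 8 of 12 alternatives, with edgeR (adjusted p = 0.112) and without dcl4-2 replicate 1, 2 or 3 or dxo1-2dcl4-2 replicate 1 or 3 among them (adjusted p = 0.0939, 0.106, 0.091, 0.144 and 0.169). With the 6 libraries of these 2 lines fitted alone, SNG1 was called in no class (adjusted p = 0.0537 at 21 nt, 0.253 at 22 nt and 0.287 at 24 nt), where 0.507%, 0.988% and 0.212% of genes were called lower. In the same fit MYB4 and 4CL1 still passed at 22 nt (adjusted p = 4.57e-05 and 0.000777). Outside dxo1-2dcl4-2, MYB4 had at most 4.33 and 4CL1 at most 5.57 normalized reads at 22 nt, both in dxo1-2. At 22 nt both genes thus reached the filter through dxo1-2dcl4-2, the line in which they were called higher, and their p-values carry that limit.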

How the data were processed

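Messenger RNA was measured in 9 libraries and small RNA in 12, grouped by their titles, with 3 replicates per group. Per the labels, the deposited mRNA values are FPKM, made by the authors. TopHat2 2.1.0, RSEM, Bowtie and the build TAIR10 are named in the submitters' processing notes, without order or settings in the sources used here. Per the labels, the small RNA tables as deposited hold a signal, reads per gene normalized by the authors within each table of 21-nt, 22-nt or 24-nt RNAs. How multiply mapping reads and strand were treated is not given there. Each small RNA column held whole multiples of 1 step (100% of values within 0.001 reads), so whole reads were recovered. Their totals cover 3 length classes, not the full library. The limma 3.58.1 package with a trend, in R 4.3.3, was run over all libraries of an assay, on log2(FPKM + 1) where a gene's mean FPKM reached 1 and on log2(normalized reads + 0.5) where its mean reached 1. Fold changes on these scales understate the change of low genes. Benjamini-Hochberg adjusted p under 0.05 over all genes tested was called. The limma and edgeR 4.0.16 scripts were tested on simulated data, with small RNA changes set only in genes with many reads. That check does not cover genes with few reads, such as UGT84A1, UGT84A3 and UGT84A4. The edgeR quasi-likelihood test on recovered reads was an alternative. It called 115, 164 and 85 genes higher at 21, 22 and 24 nt in dxo1-2dcl4-2 against dcl4-2. Intervals of ratios are 95% Poisson intervals.

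The members, lists and tests were chosen with earlier results of these data known. All members are named. From each list at most 3 genes called in both dxo1-2 and dxo1-1 in each direction are named, by the largest mean change, and the 5 genes most alike to UGT84A2 by Pearson r, and the nearest neighbours in the RefSeq order of assembly TAIR10.1, whose coordinates are not used. A small RNA column named "sampl1" was read as Col-0 replicate 1.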

Additional observations from a re-analysis of the deposited data

Results flagged for a closer look

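UGT84A3 mRNA was flagged because its change differed between dxo1-2 and the libraries labelled dxo1-1. The log2 difference of dxo1-2 from the libraries labelled dxo1-1 was -0.44 (limma adjusted p = 0.000521), with dxo1-2 lower in 3 of 3 libraries than all 3 libraries labelled dxo1-1. Over its 12 alternatives the difference ran from -0.484 to -0.406, with adjusted p-values of 0.000193 to 0.00332. The 2 groups stood at 46.2 FPKM in dxo1-2 and 63.3 FPKM in the libraries labelled dxo1-1. DXO1 mRNA differs between the same lines, at 6.73 FPKM in dxo1-2 and 212.2 FPKM in the libraries labelled dxo1-1, and its part in the difference was not tested.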

How the results depend on the processing

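The 3 mRNA changes of UGT84A2, UGT84A3 and UGT84A4 against Col-0 kept their direction and their call under all 12 alternatives of each comparison. UGT84A2 small RNAs in dxo1-2dcl4-2 against dcl4-2, and those of UGT84A3 at 22 nt, did so too. Both genes reached the small RNA filter through the lines with dxo1-2, so these small RNA calls carry the limit given above and the mRNA calls do not. The difference of UGT84A2 mRNA between dxo1-2 and the libraries labelled dxo1-1, which did not pass, ran from -0.0545 to 0.0148 when 1 library was left out. UGT84A3 at 21 nt in dxo1-2dcl4-2 against dcl4-2 lost its call with only the 2 groups compared (log2 4.83) and with reads scaled to the 3 classes summed (4.09), and ran from 4.01 to 6.04 with 1 library left out. At 24 nt it ran from 3.23 to 3.80 with 1 library left out. In 3 of 6 the limma adjusted p fell under 0.05, which is not counted as a call because of the filter limit given above. UGT84A4 at 21 nt, never called there, was -0.152 with reads scaled to the 3 classes summed and ran from -0.97 to 1.31 with 1 library left out. UGT84A3 at 21 nt in dxo1-2dcl4-2 against dxo1-2, also uncalled, ran from -1.44 to 0.595. The cause of these changes was not tested.

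Counts over all genes moved more. Centring gave 8002 genes lower in the libraries labelled dxo1-1, and 5932 higher and 7807 lower in dxo1-2. Quantile normalization gave 7831 lower in the libraries labelled dxo1-1, and 6131 higher and 7464 lower in dxo1-2. For small RNA in dxo1-2dcl4-2 against dcl4-2, at 21, 22 and 24 nt in that order, fitting only the 2 groups gave 104, 123 and 45 higher and 40, 84 and 18 lower. Scaling to the 3 classes summed gave 104, 138 and 68 higher and 419, 463 and 1015 lower, and edgeR gave 115, 164 and 85 higher. No filter gave 73 lower at 21 nt. With 1 library left out, 73 to 151, 132 to 207 and 127 to 311 were lower. In dcl4-2 against Col-0, the 2 groups alone gave 42, 62 and 7 calls, and leaving out 1 library gave 20 to 30 at 24 nt. In dxo1-2dcl4-2 against dxo1-2, the 2 groups alone gave 170, 129 and 73 calls, the 3 classes summed gave 734, 601 and 2589, edgeR gave 236 at 21 nt and 626 at 24 nt, and leaving out 1 library gave 226 to 407, 139 to 256 and 104 to 296.

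Replicate numbers gave no clear pairing of the samples. Same-numbered mRNA libraries deviated together with r from -0.0337 to 0.0945, and different-numbered ones with r from -0.104 to 0.089. Between Col-0 and the libraries labelled dxo1-1, the same-numbered values were 0.0426, 0.0693 and 0.0712, above the different-numbered ones (-0.0734 to 0.00383). The source of that small gap was not tested. Small RNA libraries had r from -0.0236 to 0.0234 when same-numbered and from -0.0346 to 0.0322 when not. A replicate block changed no call of a member. With the replicate block the change of UGT84A2 mRNA was 2.00 in dxo1-2 (adjusted p = 1.04e-08), and 9489 genes were called higher and 3878 lower in dxo1-2. Depth limits all members with few reads: 3 reads in a small RNA library are worth 0.723 to 7.97 normalized reads.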

Other observations

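AT2G23270, the gene next to UGT84B1 in the reference order, was higher than in Col-0 in dxo1-2 and in the libraries labelled dxo1-1, with a mean of 3.2 FPKM in dxo1-2, 11.3 FPKM in the libraries labelled dxo1-1 and 0.763 FPKM in Col-0 (log2 1.25, limma adjusted p = 0.000615 for dxo1-2, and 2.82, adjusted p = 7.20e-07 for dxo1-1). UGT84B1 itself was above 0 in the libraries labelled dxo1-1 alone, while UGT84B2, AT2G23230 and AtMT4b on its other side were listed at 0 in all 9 libraries. MYB70, 2 genes beyond UGT84B1, averaged 22.5 FPKM in dxo1-2, 13.4 FPKM in the libraries labelled dxo1-1 and 18.8 FPKM in Col-0. It had 86 small RNA reads over the 3 classes in dxo1-2dcl4-2, 46 in dxo1-2, 1 in dcl4-2 and 1 in Col-0, not scaled to depth.

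UGT84A1, UGT84A3 and UGT84A4 lie in a row on chromosome 4 in the reference order. Small RNA reads of the genes around them are given without scaling to depth. Of these genes, AT4G15470 had 13 small RNA reads in dxo1-2dcl4-2, 24 in dxo1-2, 5 in dcl4-2 and 25 in Col-0. AT4G15475, next to UGT84A1, had 16 in dxo1-2dcl4-2, 8 in dxo1-2, 5 in dcl4-2 and 0 in Col-0. PPD1, on the other side, had 0 in dxo1-2dcl4-2, 15 in dxo1-2, 6 in dcl4-2 and 3 in Col-0. Of the genes whose 21-nt pattern is most like that of UGT84A2, AT2G46630 averaged 130 normalized reads at 22 nt in dxo1-2dcl4-2 and 4.19 in dxo1-2, with mRNA of 4.32 FPKM in dxo1-2, 3.31 FPKM in the libraries labelled dxo1-1 and 5.45 FPKM in Col-0. TCP14 averaged 299.8 and 3.58 at 22 nt in the same lines, with mRNA of 72.2 FPKM in dxo1-2, 57.6 FPKM in the libraries labelled dxo1-1 and 62.3 FPKM in Col-0.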
